A study of Mus musculus with 16 samples.

Results

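The data describe 9 genes that lie on mouse chromosome 6 within 10 Mb of Kcna1, the gene disrupted in the knockout mice of this series, and that differed between knockout and wild type hippocampus. They were Ncapd2, Vwf, Pianp, Gm45869, Gm38901, BC064078, Gm33320, Cd163 and Ret, 9 of the 49315 genes in the deposited count table. The members were chosen on the difference between genotypes in these same libraries, so every genotype value below describes that choice and carries no test. The question the choice addresses is which genotype differences belong to the neighbourhood of the edited gene, as against the loss of its channel. The libraries came from 16 mice in 4 groups of 4: wild type on a standard diet, Kcna1 knockout on a standard diet, wild type on a ketogenic diet and Kcna1 knockout on a ketogenic diet. A ketogenic diet is rich in fat and poor in carbohydrate. The labels give the tissue as hippocampus of the brain and give no age, strain, sex, diet duration or details of the knockout allele.

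Kcna1 encodes Kv1.1, a voltage-gated potassium channel subunit of axons, and mice without it have epileptic seizures. A gene knockout made by targeting in embryonic stem cells carries, around the edited gene, chromosome from the strain that gave the stem cells. Backcrossing to another strain shortens that segment slowly, and the genes left in it, called passenger genes, stay with the knockout allele and can differ in expression through sequence differences of the strain. Whether wild type and knockout mice differ in strain sequence near Kcna1 was not measured here, so linkage and loss of the channel cannot be told apart from expression alone.

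Positions are on GRCm38, from the GENCODE M21 annotation. Kcna1 spans chr6:126640397-126646384 on the minus strand, and distances are between the lowest coordinates of the genes. The protein-coding genes of the list lie at lower coordinates than Kcna1, in the order Ret, Cd163, Pianp, Ncapd2 and Vwf. Ret (ENSMUSG00000030110, chr6:118151745-118197718, minus strand) lies 8.49 Mb from Kcna1 and encodes the receptor tyrosine kinase for ligands of the GDNF family. Cd163 (ENSMUSG00000008845, chr6:124304656-124330527, plus strand), 2.34 Mb away, encodes the haemoglobin-haptoglobin scavenger receptor, in brain a marker of perivascular macrophages. Pianp (ENSMUSG00000030329, chr6:124996694-125003096, plus strand), 1.64 Mb away, encodes a neural membrane protein that binds the receptor PILRα and the GABAB receptor. Ncapd2 (ENSMUSG00000038252, chr6:125168007-125191701, minus strand), 1.47 Mb away, encodes a subunit of condensin I, the complex that compacts chromosomes at cell division. Vwf (ENSMUSG00000001930, chr6:125546774-125686679, plus strand), 1.09 Mb away, encodes von Willebrand factor, the clotting glycoprotein made by endothelial cells.

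The other 4 genes are annotated as non-coding. Gm45869 (ENSMUSG00000110390, chr6:126549869-126556169, minus strand), a long intergenic RNA, lies 90.5 kb from Kcna1. Gm33320 (ENSMUSG00000102771, chr6:126554387-126554916, minus strand) lies inside it on the same strand, and RefSeq joins both into a single long non-coding RNA, chr6:126549322-126558592. Reads of these 2 genes may therefore have been split between them, and their values are uncertain to that extent. Gm38901 (ENSMUSG00000107060, chr6:127873563-127877246, minus strand), another long intergenic RNA, lies 1.23 Mb away at higher coordinates. BC064078 (ENSMUSG00000087150, chr6:128992952-129008040, plus strand) is a transcribed unprocessed pseudogene 2.35 Mb away, and as a pseudogene it may share reads with its parent copy.

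The 250 bases before the RefSeq start are shown for 3 of these genes, as examples of the reference promoters at this locus. They are the RefSeq sequence of GRCm38.p6, the reference mouse genome, and not the sequence of the knockout mice. Of the 9 genes, 5 had an entry in the RefSeq promoter table. The window of Ncapd2 lies inside the gene as RefSeq lists it and is not shown, and the last 26 bases of the Pianp window lie inside the GENCODE gene. The sequences read 5′ to 3′ on the strand of the gene, and capitals mark matches on either strand to any of 4 short motifs. They are the GC box GGGCGG, the box known as CCAAT, the TATA box written TATAAA, and the E-box, which reads CACGTG.
Pianp, chr6:124996470-124996719, plus strand: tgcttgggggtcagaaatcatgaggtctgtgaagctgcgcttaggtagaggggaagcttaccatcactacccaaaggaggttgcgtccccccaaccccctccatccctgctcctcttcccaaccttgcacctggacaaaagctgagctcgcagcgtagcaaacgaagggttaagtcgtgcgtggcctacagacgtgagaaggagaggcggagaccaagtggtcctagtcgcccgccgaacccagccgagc
Gm38901, chr6:127877331-127877580, minus strand: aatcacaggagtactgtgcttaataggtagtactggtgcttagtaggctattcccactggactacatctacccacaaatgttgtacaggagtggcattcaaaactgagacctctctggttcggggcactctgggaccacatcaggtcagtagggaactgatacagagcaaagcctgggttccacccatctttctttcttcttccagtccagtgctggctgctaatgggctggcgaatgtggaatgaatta
Gm33320, chr6:126558593-126558842, minus strand, the start RefSeq gives to the RNA that spans Gm45869: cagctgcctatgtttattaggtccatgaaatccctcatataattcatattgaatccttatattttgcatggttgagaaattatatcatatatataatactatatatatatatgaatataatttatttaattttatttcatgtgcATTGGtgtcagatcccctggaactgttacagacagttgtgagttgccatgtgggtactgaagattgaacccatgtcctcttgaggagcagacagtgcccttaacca

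The promoters differed in composition. That of Pianp, 1 of 3 starts in the table and the nearest to the GENCODE start, had 13 CG dinucleotides and 58.8% G and C, with no match to the 4 motifs. The median over 32851 mouse promoter windows was 6 CG dinucleotides. Gm38901 had 2 CG dinucleotides and no match. Gm33320 had no CG dinucleotide and 1 CCAAT match, and Cd163, whose sequence is not shown, also had no CG dinucleotide and 1 CCAAT match. Over all windows, 32.7% held the GC box, 33.8% the CCAAT box, 12.4% the TATA box and 6.02% the E-box. A match describes the letters only.

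Libraries held 13440230 to 22309504 counts, and levels are given as CPM, counts scaled to a common effective library size. All 9 genes were among the 17469 that passed the filter on low counts. Kcna1, the check of the labels, was 107 to 130 CPM in the 8 wild type libraries and 43.4 to 47.2 CPM in 7 of the 8 labelled knockout. The exception was KC888LL, labelled knockout on the standard diet, at 82.0 CPM, and its label was kept. Which part of Kcna1 was removed is not given, so the remaining reads do not show whether a channel was made. Ddx3y, a Y-linked gene, was expressed in 4 libraries: KC890RL, wild type, and KC872RL and KC873RR, knockout, all on the standard diet, and KC846L, wild type on the ketogenic diet. The sexes were thus unevenly spread over the groups, with no such library among knockouts on the ketogenic diet. Markers of dentate granule cells (Prox1, Dsp and C1ql2) summed to 215 to 447 CPM and of pyramidal cells (Wfs1, Fibcd1 and Neurod6) to 302 to 573 CPM over all libraries, and thalamus markers to 32.7 to 81.3 CPM. Markers of other cells and tissues differed between libraries. The 4 astrocyte markers summed to 1052 to 1233 CPM in wild type and 1023 to 3420 CPM in knockout libraries. Choroid plexus markers (Ttr, Kl and Folr1) summed to 28.6 to 1022 CPM, and 5 blood markers to 17.4 to 32.5 CPM in knockouts on the ketogenic diet, against 65.8 to 113 CPM in knockouts on the standard diet and 42.7 to 105 CPM in wild type libraries of both diets. In knockout mice 4 of the 5 blood markers were called lower on the ketogenic diet by edgeR, and so was 1 of the 3 thalamus markers, Tcf7l2 (log2 difference -1.24, adjusted p = 0.0418), where 1.16% of all genes were called in that contrast. The part of astrocytes, thalamus, choroid plexus and blood in the values of Vwf, Cd163 and the other genes was not tested. The labels do not say whether the mice were littermates, and p-values measure the spread between these animals.

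Across the 9 genes, 8 were higher and 1, Pianp, was lower in knockout than in wild type averaged over both diets. Their median log2 fold change was 0.94, against 0.00704 for all 17469 tested genes. With edgeR's quasi-likelihood test and Benjamini-Hochberg adjustment over all tested genes, 6 of the 9 had an adjusted p under 0.05 (Ncapd2, Vwf, Pianp, Gm45869, Gm38901 and BC064078), where 0.0973% of all genes did. This count is what the rule selected, and nothing is read from it. Levels did not overlap between the 8 knockout and 8 wild type libraries for 5 of the 9 (the same genes without BC064078), where this was so for 0.109% of all genes. The members just inside and just outside the adjusted threshold were Pianp at 0.0363 and Cd163 at 0.107 by edgeR, with Ret at 0.140 and Gm33320 at 0.143 also outside it. Mansc1, at 0.0811, was a gene of the window that is not on the list. The calls of Ncapd2, Vwf, Gm45869 and BC064078 held in all 16 fits with 1 library left out, whereas that of Pianp was lost in 13 and that of Gm38901 in 10 of them. Each of these fits reuses the contrast and libraries that chose the genes, so a call that held carries no test.

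**Figure D1:**
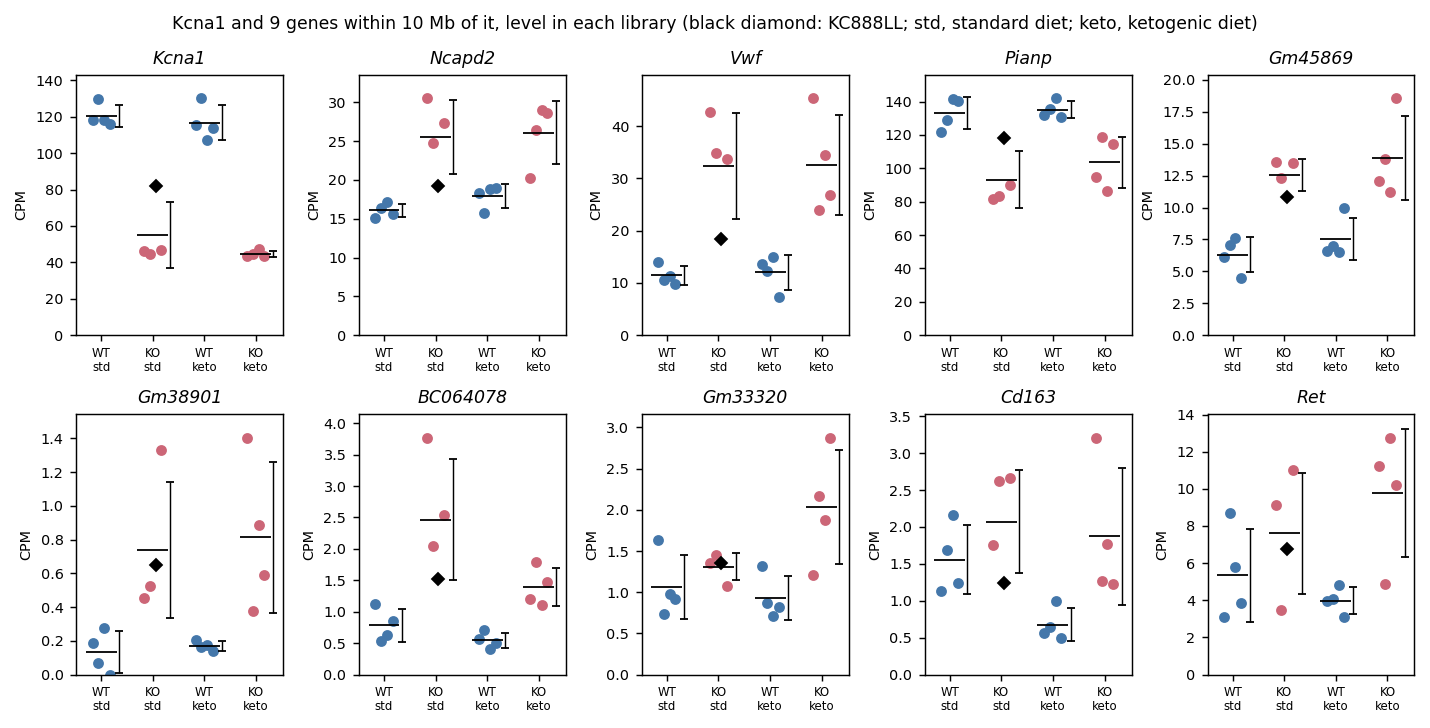
Level of Kcna1 and the 9 genes in each of the 16 libraries, in CPM on axes that start at 0. Points are libraries, horizontal lines group means and bars to the right 1 SD either way (n = 4), and the black diamond is KC888LL, which lies nearest to wild type among knockout libraries for Ncapd2, Vwf and Gm45869.

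Ncapd2 was 15.1, 16.4, 17.2 and 15.6 CPM in wild type libraries on the standard diet and 18.3, 15.7, 18.9 and 19.0 CPM on the ketogenic diet. In knockout libraries it was 30.5, 24.8, 19.3 and 27.4 CPM on the standard diet and 20.2, 26.5, 29.0 and 28.7 CPM on the ketogenic diet. The genotypes did not overlap, but the lowest knockout value, 19.3 CPM in KC888LL, stood close to the highest of wild type at 19.0 CPM. The log2 fold change between genotypes was 0.67 ± 0.13 (SE) on the standard and 0.54 ± 0.13 on the ketogenic diet. The rest of the condensin genes are given beside it, with Smc2 and Smc4, the ATPase subunits, and 5 non-SMC subunits of condensin I and II. Gene by gene, none of the 7 passed the edgeR test in either direction in any of the 6 contrasts, where between 0.0% and 1.16% of all genes did, so for 7 genes a count of 0 says little. Here and for the gene lists that follow, a single log2 difference between genotypes is the mean of both diets. The median was 0.17. The difference was 0.20 for Smc2, 0.02 for Ncapd3 and -0.06 for Ncaph2, the 3 of highest level in the list.

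Vwf was 14.1, 10.6, 11.3 and 9.74 CPM in wild type libraries on the standard diet and 13.7, 12.3, 15.0 and 7.33 CPM on the ketogenic diet. In knockout libraries it was 42.8, 34.8, 18.4 and 33.7 CPM on the standard diet and 45.4, 23.9, 34.4 and 26.8 CPM on the ketogenic diet. Every knockout library was above every wild type library, with KC888LL the lowest of them. Between genotypes the log2 difference was 1.501 ± 0.28 on the standard and 1.44 ± 0.28 on the ketogenic diet, and group means were 11.4 ± 1.87, 32.4 ± 10.2, 12.1 ± 3.35 and 32.6 ± 9.56 CPM (SD, n = 4; wild type then knockout, standard then ketogenic diet).

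Vwf is made by endothelial cells, so other genes of these cells are given beside it. Of 15 listed genes for proteins that bind or process von Willebrand factor and for endothelial markers, 14 were tested and 0 passed the edgeR test in any contrast, with a median log2 difference between genotypes of 0.16. Eng, a TGF-beta coreceptor, differed by 0.20 in the mean of both diets. The sign was not the same on both diets for Flt1, a VEGF receptor of endothelium, at -0.04 on the standard and 0.17 on the ketogenic diet, and for Kdr, the main VEGF receptor, at -0.27 and 0.50. The summed level of 8 endothelial markers, none at 0 in all libraries, was 147 to 154 CPM in wild type and 148 to 169 CPM in knockout on the standard diet, and 133 to 153 and 149.5 to 183 CPM on the ketogenic diet. In bulk tissue, a change in the number of cells of a type and in RNA per cell cannot be told apart. The part of the endothelial markers in the Vwf difference was not tested.

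Pianp was the member of highest level and the one that was lower in knockout libraries. It was 122, 129, 142 and 141 CPM in wild type libraries on the standard diet and 132, 136, 142 and 131 CPM on the ketogenic diet. Knockout libraries held 81.3, 83.4, 118 and 90.1 CPM on the standard diet and 94.9, 119, 86.2 and 114 CPM on the ketogenic diet. The highest knockout library, KC916RRL at 119 CPM, stayed just under the lowest wild type library, KC890RL at 122 CPM. Knockout minus wild type, the log2 difference was -0.51 ± 0.11 on the standard and -0.38 ± 0.11 on the ketogenic diet. The neuron markers Rbfox3, Snap25 and Syt1 had median log2 differences of -0.16 and -0.13 on the same diets, below 0 for all 3 on both. On either diet 0 of 3 passed the edgeR test, where 0.00572% of all genes did on the standard and 0.0172% on the ketogenic diet. The summed level of these neuron markers was 3610 to 3829 CPM in wild type and 3048 to 3559 CPM in knockout on the standard diet, without overlap, and 3501 to 4002 and 3183 to 3792 CPM on the ketogenic diet. Their part in the Pianp difference was not tested. Among 10 genes for proteins that bind Pianp or belong to the GABAB receptor and its auxiliary subunits, 7 were tested and 0 passed the edgeR test in any contrast. Gabbr1 and Gabbr2, the GABAB receptor subunits, differed between genotypes by -0.04 and -0.12 on the log2 scale, and App by 0.04, with a list median of -0.01.

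Gm45869 was 6.16, 7.07, 7.58 and 4.44 CPM in wild type libraries on the standard diet and 6.60, 7.02, 6.48 and 9.97 CPM on the ketogenic diet. Knockout libraries held 13.5, 12.3, 10.8 and 13.5 CPM on the standard diet and 12.04, 13.8, 11.2 and 18.6 CPM on the ketogenic diet. The genotypes did not overlap, and the log2 fold change was 0.99 ± 0.18 on the standard and 0.88 ± 0.18 on the ketogenic diet.

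Gm33320, which lies inside Gm45869, was lower in level and overlapped between genotypes. It was 1.63, 0.741, 0.974 and 0.915 CPM in wild type libraries on the standard diet and 1.32, 0.864, 0.707 and 0.820 CPM on the ketogenic diet. Knockout libraries held 1.36, 1.46, 1.35 and 1.08 CPM on the standard diet and 1.20, 2.17, 1.88 and 2.88 CPM on the ketogenic diet. Its log2 fold change was 0.29 ± 0.31 on the standard and 1.12 ± 0.30 on the ketogenic diet. The first of these was 0.58 without KC890RL and 0.16 without KC894RLL, both wild type.

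Gm38901 had few reads in any library, 0 to 4 counts in wild type and 5 to 21 in knockout. It was 0.188, 0.0673, 0.278 and 0 CPM in wild type libraries on the standard diet and 0.203, 0.162, 0.177 and 0.137 CPM on the ketogenic diet, the count of 0 allowing up to 0.196 CPM. Knockout libraries held 0.453, 0.524, 0.649 and 1.33 CPM on the standard diet and 1.40, 0.374, 0.884 and 0.587 CPM on the ketogenic diet. The genotypes did not overlap. The log2 fold change was 2.39 ± 0.61 on the standard and 2.23 ± 0.55 on the ketogenic diet, and it rests on these few reads.

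BC064078 was 1.13, 0.539, 0.626 and 0.849 CPM in wild type libraries on the standard diet and 0.559, 0.702, 0.412 and 0.501 CPM on the ketogenic diet. Knockout libraries held 3.77, 2.04, 1.51 and 2.54 CPM on the standard diet and 1.20, 1.79, 1.105 and 1.47 CPM on the ketogenic diet. The genotypes did not overlap within either diet, but over both diets 1 knockout library, KC934R at 1.105 CPM, lay below KC890RL, wild type on the standard diet. The log2 fold change was 1.64 ± 0.31 on the standard and 1.34 ± 0.33 on the ketogenic diet.

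Cd163 was 1.13, 1.68, 2.16 and 1.24 CPM in wild type and 1.76, 2.62, 1.24 and 2.66 CPM in knockout on the standard diet, with overlap. Under the ketogenic diet it was 0.559, 0.648, 1.00 and 0.501 CPM in wild type and 3.21, 1.27, 1.77 and 1.23 CPM in knockout, without overlap. On the log2 scale the genotypes differed by 0.41 ± 0.34 on the standard and 1.47 ± 0.37 on the ketogenic diet. With 1 library left out, the first value ranged from 0.28 without KC893RL to 0.61 without KC897RR. Of 9 genes of haemoglobin uptake and perivascular macrophages, 4 were tested and 0 passed the edgeR test in any contrast, with a median log2 difference between genotypes of 0.57. Hmox1, which breaks down haem, differed by 0.67, F13a1 by 0.46 and Mrc1, the mannose receptor of these macrophages, by 0.16. The summed level of 7 perivascular macrophage markers was 1.83 to 4.77 CPM in wild type and 4.25 to 4.88 CPM in knockout on the standard diet, and 2.14 to 3.40 and 2.39 to 4.405 CPM on the ketogenic diet. No marker was at 0 in all libraries, though Pf4, Ms4a7, Cbr2 and Cd209f were too low to be tested. The 7 microglia markers were all above 0 between genotypes on the standard diet, with a median log2 difference of 0.50. On the ketogenic diet all were below 0, with a median of -0.14. On either diet 0 of 7 passed the edgeR test, where 0.00572% of all genes did on the standard and 0.0172% on the ketogenic diet. The summed level of the microglia markers was 245 to 283 CPM in wild type and 258 to 515 CPM in knockout on the standard diet, and 253 to 276 and 231 to 243 CPM on the ketogenic diet. The part of these macrophage and microglia markers in the Cd163 values was not tested.

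Ret, the most distant of the 9 genes, was 3.08, 8.68, 5.77 and 3.86 CPM in wild type and 9.15, 3.50, 6.76 and 11.04 CPM in knockout on the standard diet, with overlap. Under the ketogenic diet it was 3.96, 4.05, 4.83 and 3.10 CPM in wild type and 11.2, 4.86, 12.8 and 10.2 CPM in knockout, where the lowest knockout library stood just above the highest wild type library. The genotypes differed by 0.51 ± 0.37 (log2) on the standard and 1.31 ± 0.37 on the ketogenic diet, and leaving out 1 library moved the standard diet value to between 0.29 without KC893RL and 0.85 without KC894RLL. Of 10 ligands and coreceptors of Ret, 5 were tested and 0 passed the edgeR test in any contrast, with a median difference between genotypes of -0.07. Gfra1, the GDNF coreceptor, differed by 0.29, Gfra2, the neurturin coreceptor, by -0.29 and Gfra4 by -0.16.

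Per kilobase of annotated exon, Pianp stood highest in wild type mice on the standard diet at 46.7 ± 3.37 CPM per kb (SD, n = 4). Gm45869 followed at 3.70 ± 0.809, Ncapd2 at 2.56 ± 0.142 and Gm33320 at 2.01 ± 0.738 CPM per kb. Ret at 0.791 ± 0.369 and Vwf at 0.712 ± 0.116 CPM per kb lay within each other's spread, and so did BC064078 at 0.309 ± 0.104 and Cd163 at 0.284 ± 0.0856 CPM per kb. Gm38901 was lowest at 0.0444 ± 0.0412 CPM per kb. For comparison, Kcna1 was 25.2 ± 1.32 CPM per kb.

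Of the 174 tested genes within 10 Mb of Kcna1, 8 had an adjusted p under 0.05 in the mean of both diets by edgeR, namely 6 of the listed genes, Kcna1 and Gapdh. That is 4.6% of the window, against 9 of 17295 genes elsewhere, 0.052%. The listed genes were chosen for this difference within the window, so the gap restates that choice and carries no test. Among the 164 window genes other than the 9 and Kcna1, Gapdh alone was called. The counts changed with KC888LL and with the tool, and they too hold the chosen genes. Without that library edgeR called 18 of 177 window genes, 10.2%, against 862 of 17548 elsewhere, 4.91%, and 7 of the 18 were listed genes. DESeq2 with all libraries called 14 of 175, 8.0%, against 391 of 17302, 2.26%, and 8 of the 14 were listed genes. Nothing is read from these gaps. The 164 window genes other than the 9 and Kcna1 had log2 fold changes around a median of 0.00274, with a 5th percentile of -0.40 and a 95th of 0.60. Between Cd163 and BC064078, 83 tested genes have their lowest coordinate.

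**Figure D2:**
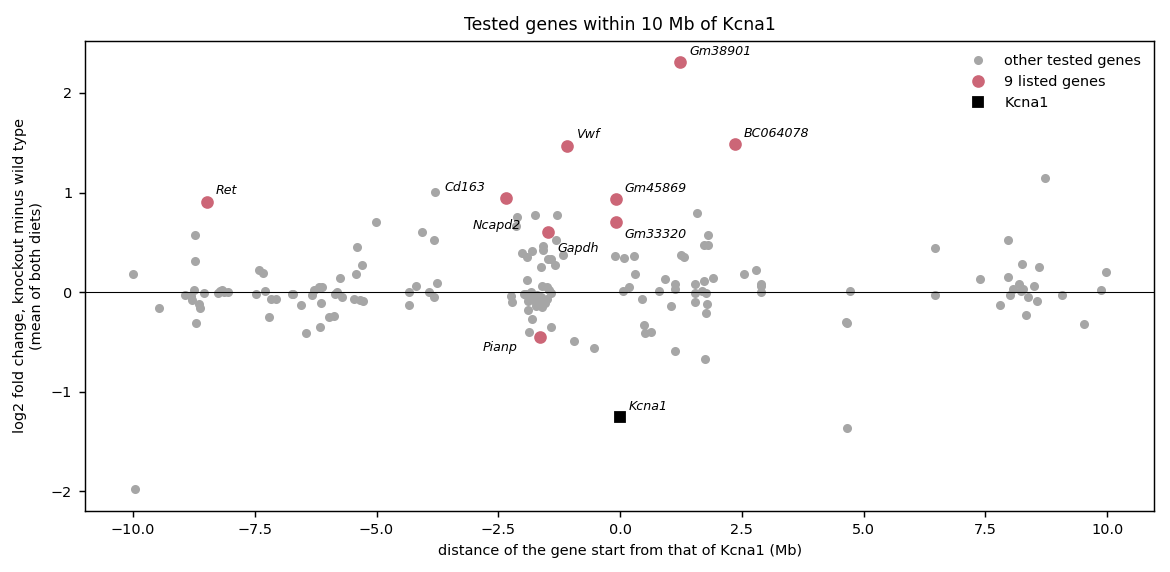
Log2 fold change, knockout minus wild type averaged over both diets, of the 174 tested genes within 10 Mb of Kcna1 against distance from Kcna1 in Mb. Red points are the 9 listed genes, the black square Kcna1 and grey points the other genes, which have a median of 0.00274.

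Cops7a and Zfp384, on either side of Pianp, differed between genotypes by -0.09 and -0.04 on the log2 scale. Mrpl51 beside Ncapd2 differed by 0.02, and Csgalnact2 and Bms1 around Ret each by -0.01. Pex5 and Necap1 around Cd163 differed by -0.03 and 0.09, and A2ml1 and Clec2d around BC064078 by 0.14 and 0.18. Larger values without an adjusted p under 0.05 by edgeR were those of Ano2 at -0.49 and Cd9 at 0.38 around Vwf, 4921513H07Rik at -0.59 and Tspan11 at 0.38 around Gm38901, and Kcna5 at 0.37 beside Gm45869. Kcna6, a channel gene of the same cluster 67.9 kb from Kcna1, was 49.4 ± 1.45 CPM in wild type and 49.1 ± 3.95 CPM in knockout on the standard diet, a log2 difference over both diets of 0.02 ± 0.06.

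Gapdh (chr6:125161715-125166467, minus strand) is the glycolytic enzyme gene 6.29 kb from Ncapd2. By edgeR with all libraries it was, beside Kcna1 itself, the one called window gene outside the list in the mean of both diets. It was 851, 889, 947 and 892 CPM in wild type and 1101, 1028, 967 and 1207 CPM in knockout on the standard diet. Under the ketogenic diet it was 857, 899, 872 and 893 CPM in wild type and 1197, 1151, 1185 and 1124 CPM in knockout. The genotypes did not overlap, with a log2 fold change of 0.33 ± 0.04 over both diets. A processed pseudogene on chromosome 2, Gm13394 (chr2:28933610-28934609, minus strand), is 99.9% identical to Gapdh over 1000 of its 1000 bases, so reads of the 2 may have been exchanged in counting. Gm13394 was 109 to 124 CPM in wild type libraries on the standard diet and 109 to 125 CPM on the ketogenic diet. In knockout libraries it was 1.91, 0.932, 57.1 and 1.27 CPM on the standard diet and 0.870, 1.35, 0.331 and 0.587 CPM on the ketogenic diet. Summed with Gm13394, Gapdh was 1012 ± 44.9 CPM in wild type and 1091 ± 86.2 CPM in knockout on the standard diet, and 998 ± 24.4 and 1165 ± 33.2 CPM on the ketogenic diet (SD, n = 4). The sums of the genotypes thus lay closer together than Gapdh alone, and to what extent the Gapdh difference is one of read assignment was not tested.

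On the standard diet KC888LL stood between the genotypes for 5 of the 9 genes. Its place is given on a scale where the mean of the 4 wild type libraries on the standard diet is 0% and that of the other 3 knockout libraries is 100%. Kcna1 lay at 51.6% and Gm13394 at 52.2%, where wild type libraries reached at most 6.3% and 7.9% and the other knockout libraries began at 98.7% and 99.5%. Ncapd2 lay at 27.7%, Vwf at 27.3%, Pianp at 31.2%, BC064078 at 36.5% and Gapdh at 33.2%, each between the 2 ranges. Gm45869 at 66.3% was also between them, and Gm38901 at 81.1% lay within the knockout range, which began at 50.2%. Cd163 at -38.7%, Ret at 55.5% and Gm33320 at 124% had overlapping ranges of wild type and knockout on this diet, and their places do not tell the genotypes apart. On a scale built from the libraries of both diets, Ncapd2 at 23.1%, Vwf at 29.3% and Gm45869 at 58.7% remained between the ranges. Pianp at 41.5% and BC064078 at 64.2% lay within the knockout range there, which began at 40.0% and 33.2%. A Pianp level like that of KC888LL, 118 CPM, was also seen in KC916RRL at 119 and KC935LL at 114 CPM, knockout libraries with Kcna1 at 44.6 and 43.5 CPM. These positions describe 1 library, and what sets them was not tested. The share of all tested genes with KC888LL between the 2 ranges was not counted, so nothing particular to the 9 genes is read from them.

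**Figure D3:**
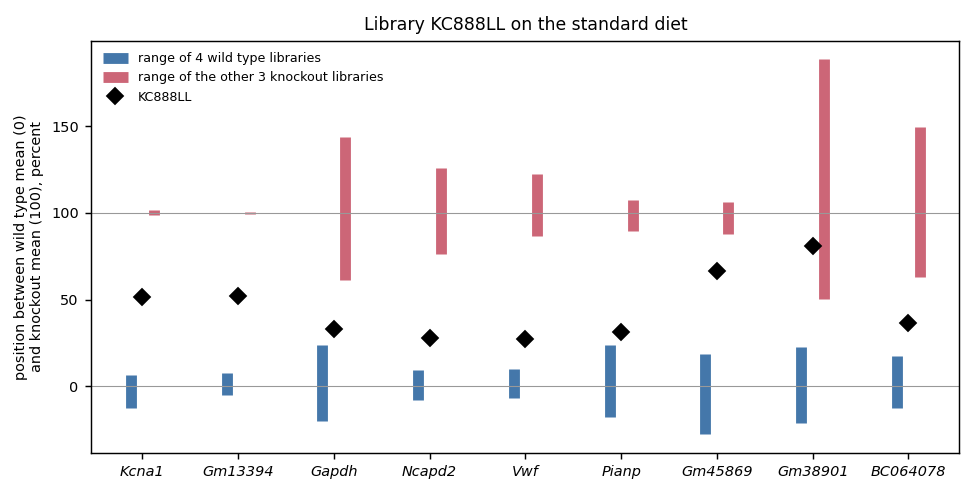
Position of KC888LL (black diamonds) between the mean of 4 wild type libraries (0) and that of the other 3 knockout libraries (100) on the standard diet, in percent. Blue and red bars are the ranges of the wild type and of the other knockout libraries. Kcna1 and Gm13394 lie near 50, and Ncapd2, Vwf and Pianp near 30.

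Without KC888LL, 6 of the 9 genes had an adjusted p under 0.05 between genotypes on the standard diet by edgeR, where 5.73% of all tested genes did. With it, 0 of 9 did, against 0.00572% of genes, although 6 had an unadjusted p under 0.05, against 14.3% of genes, and DESeq2 called 5 against 1.14%. In the mean of both diets edgeR called 7 without KC888LL, against 4.96% of genes, and DESeq2 called 8 with it, against 2.32%. On the ketogenic diet edgeR called 0 of 9, against 0.0172% of genes, with 9 at an unadjusted p under 0.05, against 9.22%, and DESeq2 called 4 against 0.299%. Within the standard diet 6 of the 9 did not overlap between genotypes, against 5.86% of genes, and within the ketogenic diet 8, all but Gm33320, against 3.98%. These counts rest on the contrast that chose the genes.

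Diet was not used to choose the genes, although the knockout and wild type libraries of both diets entered the choice. In knockout mice 0 of 9 passed, where 1.16% of all genes did, and 2 had an unadjusted p under 0.05 by edgeR and by DESeq2, where edgeR gave 16.9% of all genes. In wild type mice 0 of 9 passed, where 0.0114% of all genes did, and 1 had an unadjusted p under 0.05 by either tool, against 5.46% by edgeR. DESeq2 called 0 of 9 in both genotypes, against 4.09% of genes in knockout and 0.062% in wild type mice.

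For the 5 genes whose genotypes did not overlap, the diet differences were as follows. Separation over both diets itself favours genes that differ little between diets, so small values among these 5 are partly set by that grouping. In knockout mice the log2 difference, ketogenic minus standard diet, was 0.03 ± 0.12 (SE) for Ncapd2, 0.01 ± 0.26 for Vwf, 0.15 ± 0.11 for Pianp, 0.15 ± 0.17 for Gm45869 and 0.16 ± 0.45 for Gm38901. In wild type mice it was 0.16 ± 0.13, 0.07 ± 0.29, 0.02 ± 0.11, 0.26 ± 0.19 and 0.33 ± 0.75 for the same genes in that order. Leaving out 1 library turned the sign for Ncapd2, Vwf, Gm45869 and Gm38901 in knockout and for Vwf, Pianp and Gm38901 in wild type mice. Without a turn of sign, it moved Pianp in knockout to between 0.079 and 0.289 and Gm45869 in wild type mice to between 0.089 and 0.356.

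BC064078 had the lowest unadjusted p among the 9 for diet in knockout mice. Its log2 difference was -0.83 ± 0.29, with an edgeR p of 0.0103 and an adjusted p of 0.157. The 2 diets overlapped, at 1.51 to 3.77 CPM on the standard and 1.105 to 1.79 CPM on the ketogenic diet. Without KC888LL the difference was -1.005 and the adjusted p 0.0456, where 6.18% of all genes were called, and without KC872RL it was -0.54 with an adjusted p of 0.525. With Xist, a measure of sex, as a covariate the difference was -0.57 with an adjusted p of 0.556. In wild type mice the difference was -0.53 ± 0.36, and -0.68 to -0.30 with 1 library left out. Gm33320 differed in knockout mice by 0.63 ± 0.29, with an edgeR p of 0.0439 and an adjusted p of 0.281, and in wild type mice by -0.20 ± 0.32. With 1 library left out its knockout difference ranged from 0.41 to 0.81.

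Cd163 had the lowest unadjusted p for diet in wild type mice. Its level did not overlap there between 1.13 to 2.16 CPM on the standard and 0.501 to 1.00 CPM on the ketogenic diet, a log2 difference of -1.20 ± 0.37 with an edgeR p of 0.00456 and an adjusted p of 0.761. The 3 tested perivascular macrophage markers were below 0 in the same contrast, F13a1 at -1.07, Mrc1 at -0.34 and Lyve1 at -0.07, none with an adjusted p under 0.05, and their part in the Cd163 difference was not tested. In knockout mice the difference was -0.14 ± 0.33. The interaction of genotype and diet passed for 0 of 9 genes by edgeR and by DESeq2, where 0.0% of all genes passed by edgeR and 0.0121% by DESeq2. Cd163 alone had an unadjusted p under 0.05 for it, where 7.48% of all genes did. Ret differed between diets by 0.37 ± 0.36 in knockout and -0.43 ± 0.39 in wild type mice. With 1 library left out these values ranged from 0.13 to 0.59 and from -0.62 to -0.09.

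**Figure D4:**
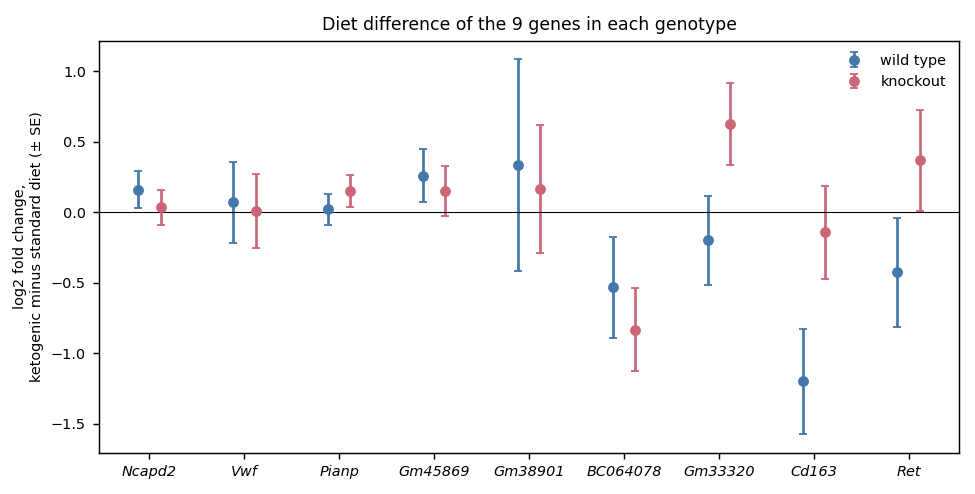
Log2 difference between diets, ketogenic minus standard, of the 9 genes in wild type (blue) and knockout (red) mice, with the standard error of the edgeR fit as bars (4 libraries per diet and genotype). Cd163 in wild type at -1.20 and BC064078 in knockout at -0.83 lie farthest from 0, and no gene had an adjusted p under 0.05.

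Gfap, the intermediate filament of reactive astrocytes, varied widely among knockout libraries and offered a measure the choice of genes had not used. It was 2327, 1340, 348 and 611 CPM in knockout libraries on the standard diet and 2018, 288, 1059 and 295 CPM on the ketogenic diet, and 294 to 390 CPM in wild type libraries. Across the 8 knockout libraries, the level of Vwf was related to that of Gfap with r = 0.89 by an exact permutation test (two-sided p = 0.00246, adjusted p = 0.152 over 17468 genes) and rho = 0.90. Pairings were permuted over both diets together. On the standard diet the knockout libraries highest in both genes, KC872RL and KC873RR, were also those that expressed Ddx3y. No knockout library on the ketogenic diet expressed it, and the part of sex and diet in the relation was not tested. Without the 2 libraries farthest from the median of Gfap, KC872RL and KC916RRL, r of Vwf with Gfap was 0.85. The relation did not pass the adjusted threshold, and neither did that of any gene, the smallest adjusted p being 0.0619.

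Pianp fell into separate ranges in the knockout libraries, so no coefficient is read for it. In 5 libraries it was 81.3 to 94.9 CPM with Gfap at 611 to 2327 CPM, and in 3 it was 114 to 119 CPM with Gfap at 288 to 348 CPM, the level of wild type libraries. The 3 libraries with high Pianp were KC888LL on the standard diet and KC916RRL and KC935LL on the ketogenic diet. On the standard diet the high range thus holds KC888LL alone, the library with Kcna1 at 82.0 CPM, and the other 3 knockout libraries were at 81.3 to 90.1 CPM. Vwf in the same 3 libraries was 18.4, 23.9 and 26.8 CPM, the lowest values in knockout but above every wild type library.

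Apart from Vwf and Pianp, none of the 7 members reached an unadjusted p under 0.05 with Gfap over both diets. Pearson's r was 0.06 for Ncapd2 (exact permutation p = 0.877), -0.37 for Gm45869 (exact permutation p = 0.393) and 0.71 for Cd163 (exact permutation p = 0.0638), with adjusted p over all genes of 0.965, 0.756 and 0.386. Unadjusted exact p was thus under 0.05 for 2 of the 9, Vwf and Pianp, where this was so for 14.0% of all genes. Pianp is counted here only to complete the tally, and no relation is read from its p because its values fell into separate ranges. Of the 3 knockout libraries with Gfap at the wild type level, KC916RRL and KC935LL had Ncapd2 at 26.5 and 28.7 CPM and Gm45869 at 13.8 and 18.6 CPM. The third, KC888LL, had the lowest knockout value of both, 19.3 CPM against a wild type maximum of 19.0 CPM for Ncapd2 and 10.8 against 9.97 CPM for Gm45869. For Ncapd2 and Gm45869 the sign of r differed between diets, above 0 on the standard and below 0 on the ketogenic diet. The 4 knockout libraries of a diet are too few for a coefficient within a diet to be read. A coefficient near 0 over both diets does not show that a gene and Gfap are unrelated.

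**Figure D5:**
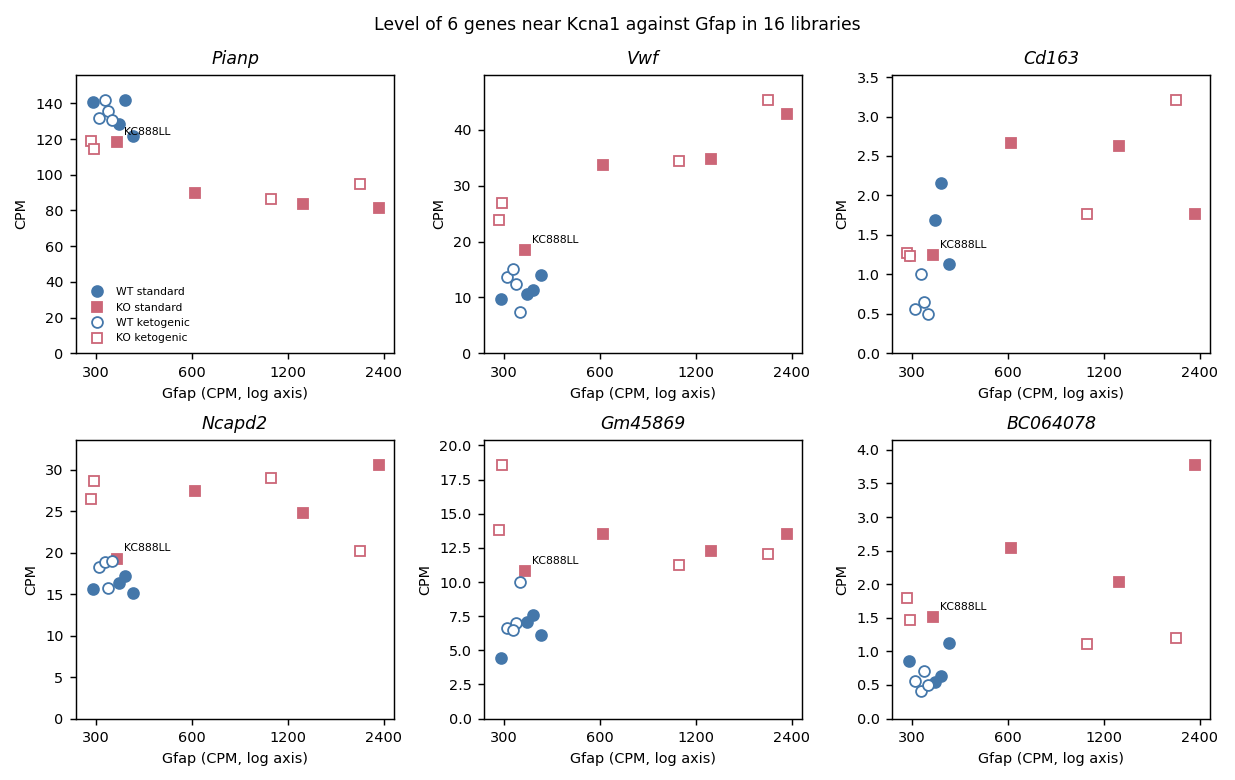
Level of 6 of the genes (CPM, axes from 0) against Gfap (CPM, log axis) in the 16 libraries, with circles for wild type, squares for knockout, filled symbols for the standard and open symbols for the ketogenic diet. The 3 knockout libraries with the lowest Gfap have Pianp at 114 to 119 CPM, while Ncapd2 and Gm45869 among those 3 are lowest in KC888LL.

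The genes most alike across the 16 libraries were found by the largest absolute Pearson r of log2 CPM, once within 10 Mb of Kcna1 and once elsewhere. These coefficients are descriptions, since all genes that differ by genotype share that difference and the libraries. Kcna1 was the closest within the window for Ncapd2 (r = -0.90), Vwf (-0.92), Gm45869 (-0.87) and Gm33320 (-0.67). Vwf was the closest for Pianp (-0.89) and Gm38901 (0.85), Fkbp4 for BC064078 (-0.84), Ltbr for Cd163 (0.77) and Gapdh for Ret (0.74). Elsewhere in the genome the closest were Smad7 for Ncapd2 (-0.90), Col12a1 for Vwf (0.92), Slc6a5, the neuronal glycine transporter gene, for Pianp (-0.95) and the Gapdh copy Gm13394 for Gm45869 (-0.84). For the rest they were Fxyd7 for Gm38901 (-0.86), Dcun1d2 for BC064078 (-0.90), Nhej1 for Gm33320 (0.81), Ano3 for Cd163 (-0.88) and Slc32a1, the vesicular GABA transporter gene, for Ret (0.86).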

How the data were processed

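RNA was sequenced from the hippocampus of 16 mice, 4 per combination of genotype and diet. The authors deposited a table of raw counts per gene, and the submitters' processing notes name the build mm10 and DESeq2. The aligner, the counting program and the use of strand are not given in the sources used here, so genes that overlap or have near-identical copies are uncertain. Values were taken as counts because they are whole numbers with totals that differ between libraries. Columns carry an animal tag, genotype and diet, and libraries are named by tag. No 2 libraries of a group agreed within sampling noise (lowest chi-square per gene 3.71 over 24 pairs).

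The edgeR function filterByExpr kept 17469 genes. With edgeR 4.0.16 (R 4.3.3), all 16 libraries entered a quasi-likelihood model that had TMM factors, robust dispersions and a coefficient for each group. Contrasts were tested two-sided, and p-values were adjusted by Benjamini-Hochberg over all tested genes. Levels are CPM of effective library sizes, and correlations used log2 CPM with a prior count of 2 and all 40320 pairings of the 8 knockout libraries. They were adjusted over all tested genes, and not over the 9 as first planned. The scripts were tested on simulated data.

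The 9 genes, the lists (condensin, Vwf and endothelium, Pianp, Ret, Cd163 partners, cell type markers) and the tests were chosen with earlier results of these data known. Named besides the 9 were Kcna1, Kcna5, Kcna6, Gapdh, the nearest tested gene on each side, the gene with the largest absolute r within 10 Mb and elsewhere, and up to 3 list genes of highest level. Names for positions came from GENCODE M21, which held 49056 of 49315 identifiers. Alternatives were DESeq2 1.42.0, DESeq2 size factors, no filter, only the groups compared, Xist as a covariate, another prior count, CPM by total counts and each library left out.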

Additional observations from a re-analysis of the deposited data

Results flagged for a closer look

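Gm45869 in wild type mice on the ketogenic diet held 1 library far from the others. KC846L was at 9.97 CPM and the other 3 at 6.48 to 7.02 CPM, a gap of 0.847 of the range of the group, past Dixon's critical value for 4 samples. It was the one such value among 36 groups of 4 libraries. Chance alone flags about 1 group in 20, so 1 flag among 36 groups is not more than chance gives. KC846L was also the wild type library on that diet with expression of the Y-linked gene Ddx3y, and it had the lowest Vwf of all libraries, 7.33 CPM. It remained below every knockout library for Gm45869.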

How the results depend on the processing

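The 9 genes gave 735 values under alternatives, of which 666 kept direction and side of the threshold, 24 passed it newly, 23 lost it and 22 changed sign. Between genotypes on the standard diet, 0 genes were called, 3 with no filter on low counts (0.0543% of all genes), 5 with DESeq2, and 0 to 6 with a library left out, the 6 without KC888LL. On the ketogenic diet 0 became 1 with no filter (0.0332%), 4 with DESeq2, and 0 to 1 with a library left out, the 1 being Gm45869 without KC846L (0.0395% of all genes). Averaged over both diets the 6 calls ranged from 4 to 7 with a library left out, those lost being Pianp and Gm38901. For diet in knockout mice the range was 0 to 1, the 1 being BC064078 without KC888LL.

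Signs that turned belonged to diet differences and Gfap relations, none of which had passed the threshold. With Xist as a covariate, the diet difference of Gm38901 in knockout mice was -0.153. With each library left out in turn, the log2 diet difference in knockout mice ranged from -0.0756 to 0.138 for Ncapd2, -0.189 to 0.177 for Vwf, -0.0220 to 0.247 for Gm45869, -0.209 to 0.586 for Gm38901 and -0.523 to 0.0193 for Cd163. In wild type mice it ranged from -0.0505 to 0.254 for Vwf, -0.0206 to 0.0495 for Pianp, -0.0685 to 0.905 for Gm38901 and -0.417 to 0.0863 for Gm33320. The correlation with Gfap ranged from -0.275 to 0.415 for Ncapd2, -0.651 to 0.0232 for Gm45869, -0.246 to 0.528 for BC064078 and -0.035 to 0.555 for Ret. The cause was not tested.

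No paired analysis was possible because the columns carry animal tags and no replicate number. Depth limits Gm38901 most, with at most 4 counts in a wild type library.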

Other observations

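Window genes outside the list of 9 also leaned one way between genotypes without an adjusted p under 0.05 by edgeR in the mean of both diets, and 3 are given here, chosen after their values were seen. Mansc1, 7.97 Mb from Kcna1, differed by 0.52 on the log2 scale (adjusted p = 0.0811), and 6 of 8 knockout libraries were above every wild type library. Ccnd2, which encodes cyclin D2 and lies 0.485 Mb from Kcna1, differed by -0.33 (adjusted p = 0.117), and 6 of 8 knockout libraries were below every wild type library. The gene 4933413G19Rik, 1.74 Mb away, differed by -0.67 (adjusted p = 0.124), with 7 of 8 knockout libraries below every wild type library. D6Wsu163e, Scnn1a and Gm45769 also had 6 of 8 knockout libraries above every wild type library, and Gm44958 had 6 of 8 below. Of these, Scnn1a and Gm45769 each had 1 knockout library below every wild type library, and Gm44958 had 1 above. The share of all tested genes with 6 of 8 knockout libraries beyond the wild type range was not counted, so nothing particular to the window is read from these counts.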
